A study of Mus musculus with 6 samples.

Results

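Ion channel genes were taken from the table by symbol: potassium (Kcn), calcium (Cacn), voltage-gated sodium (Scn) and epithelial sodium (Scnn), transient receptor potential (Trpc, Trpm and Trpv), chloride (Clcn and Clic), anoctamin (Ano), Piezo and hyperpolarization-activated (Hcn) genes. The pattern found 132 genes of 17912 in the table, and the pattern itself uses no measured value. Another 51 protein-coding genes of the GENCODE M21 annotation whose names fit the pattern are not among these 17912. No gene of the 17912 had fewer than 15 reads in all. RNA was compared between 3 shEXOSC2 libraries, numbered clones 5, 6 and 7 and given the genotype EXOSC2_KD, and 3 control libraries, numbered 1, 2 and 3 and given the genotype WT. Every library is labelled as mouse embryonic stem cells. A short hairpin RNA (shRNA) lowers a target's mRNA, here that of Exosc2, which encodes a subunit of the RNA exosome. Each of the 3 is a single clone. The sources used here do not give the parental line, any hairpin in the control cells, or whether the libraries came from separate cultures. The p-values therefore measure the spread between these libraries, which may be technical.

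Ion channels are membrane proteins that let selected ions pass, opened by voltage, ligands, calcium, temperature or membrane stretch. Potassium channels set the resting potential and end action potentials, voltage-gated sodium channels start them, and voltage-gated calcium channels turn depolarization into calcium entry. Most pores assemble with auxiliary subunits that change their gating or their transport to the surface. In cells that do not fire action potentials, such as embryonic stem cells, channels are known for roles in membrane potential, cell volume and calcium entry.

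Values are scaled counts, that is, reads per gene divided by a size factor of the library. The whole reads behind them summed to between 21107761 and 26494985 per library. Exosc2 had 1138, 997 and 981 in the clones and 2457, 2473 and 1954 in the controls, so that the clones kept 45.3% of the control mean (log2 fold change -1.14 ± 0.13 SE, adjusted p = 5.1e-05). An exact permutation test on Exosc2 (two-sided) had p = 0.1, which is as low as a design of 3 and 3 libraries can go. The test used below is limma on log2(scaled count + 1), adjusted over the 15179 genes that average at least 10, and "higher" or "lower" means an adjusted p under 0.05. A value in parentheses after the levels of a gene is the log2 fold change of clones over controls ± SE, and levels with ± are means of scaled counts ± SD over 3 libraries. The adjusted p was at most 0.0068 for every member called higher and at most 0.021 for every member called lower, and is printed for the leading genes. Of the 15179 genes, 5347 were higher in the clones (35.2%) and 5811 were lower (38.3%).

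The clones went against the label of embryonic stem cells in part of the pluripotency markers. Nanog, a core transcription factor of these cells, averaged 0.674 ± 0.584 in the clones and 9698 ± 366 in the controls (SD, n = 3 each), Esrrb averaged 2.27 ± 0.432 against 16546 ± 736, and Zfp42 and Utf1 had no read in any clone. Pou5f1 averaged 91114 ± 2227 in the clones and 21045 ± 4721 in the controls, and carried nearly all of the list's sum in the clones. Over the list of 8 pluripotency markers, 7 were lower and 1 was higher, with sums of 91114 to 97113 in the clones and 98808 to 114884 in the controls. Among markers of other cells, 8 of 9 tested fibroblast genes were higher (sums of 51248 to 66082 against 9332 to 10651), and 4 of 10 epithelial genes were higher and 6 lower (26476 to 28555 against 27902 to 42584). The most abundant of them in the clones were Vim among the fibroblast genes (27647 ± 2113 in the clones, 4053 ± 387 in the controls) and Ehf among the epithelial genes (16997 ± 810 and 1.69 ± 0.605). The 6 lower epithelial genes included Cdh1 (982 ± 257 in the clones, 15794 ± 3163 in the controls) and Cldn7 (0.332 ± 0.574 and 907 ± 197). The neuron list gave 2 higher and 4 lower of 7 tested (4939 to 5293 against 4719 to 4894). Elavl3 and the untested Snap25 were at 0 in the clones. The 2 higher were Tubb3 (1611 ± 280 in the clones, 743 ± 180 in the controls) and Map2 (1563 ± 127 and 648 ± 119). The glia list gave 1 higher and 4 lower of 5 (1134 to 1223 against 1377 to 1407), with Olig2 at 0 in the clones. The higher one was Mbp (1138 ± 33.9 in the clones, 423 ± 119 in the controls). The striated muscle list gave 1 higher and 3 lower of 6 (212 to 268 against 721 to 1180). Myh6 and the untested Myh7 were at 0 in the clones and averaged 35.9 ± 8.03 and 6.01 ± 1.88 in the controls. Des was lower (5.59 ± 1.40 in the clones, 694 ± 203 in the controls). Here Tnnt2 was higher (52.4 ± 14.0 in the clones, 17.1 ± 12.2 in the controls). The smooth muscle list gave 1 higher and 3 lower of 6 (1520 to 3367 against 1928 to 2539). The higher one was Acta2 (1305 ± 662 in the clones, 416 ± 105 in the controls). The part of these markers in the channel results was not tested, and in these bulk libraries fewer cells of a type cannot be told apart from less RNA per cell.

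The 4 promoters below belong to the members that the results turn on most: the neighbouring sodium channel genes Scn4b and Scn2b, which changed in opposite directions, Ano1, with the highest scaled count in the clones, and Kcnk1, with the largest difference among members without a clone read. They are RefSeq windows on GRCm38.p6, from 250 bases before to 50 after the RefSeq start, read 5′ to 3′ on the gene's strand, with each CG pair in capitals because CG-rich promoters are typical of broadly expressed genes. They lie at chr9:45138374-45138673 (plus strand), chr9:45117626-45117925 (plus), chr7:144738524-144738823 (minus) and chr8:125994852-125995151 (plus). The Ano1 window lies inside the annotated gene (chr7:144588549-144751974, minus strand) and not at its outer start. Whether transcripts in the clones start there was not tested. Of these genes, Scn2b and Kcnk1 passed the filter on the mean only through the controls, and such genes had to differ.
Scn4b: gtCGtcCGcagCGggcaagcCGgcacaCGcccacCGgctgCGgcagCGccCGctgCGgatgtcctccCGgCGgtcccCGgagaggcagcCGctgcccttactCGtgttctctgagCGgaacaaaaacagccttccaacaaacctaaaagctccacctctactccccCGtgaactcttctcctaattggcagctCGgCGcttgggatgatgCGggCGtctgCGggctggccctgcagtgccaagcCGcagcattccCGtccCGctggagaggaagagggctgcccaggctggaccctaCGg
Scn2b: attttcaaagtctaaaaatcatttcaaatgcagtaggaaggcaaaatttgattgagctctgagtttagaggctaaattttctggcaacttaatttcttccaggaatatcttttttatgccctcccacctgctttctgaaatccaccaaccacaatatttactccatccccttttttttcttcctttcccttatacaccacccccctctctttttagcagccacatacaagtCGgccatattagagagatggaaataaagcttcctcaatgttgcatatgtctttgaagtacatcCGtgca
Ano1: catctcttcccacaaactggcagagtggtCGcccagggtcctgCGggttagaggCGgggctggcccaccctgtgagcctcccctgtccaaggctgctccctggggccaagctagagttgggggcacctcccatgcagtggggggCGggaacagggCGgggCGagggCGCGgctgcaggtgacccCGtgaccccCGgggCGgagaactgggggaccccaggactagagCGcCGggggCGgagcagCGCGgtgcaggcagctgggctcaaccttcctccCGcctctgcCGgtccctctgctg
Kcnk1: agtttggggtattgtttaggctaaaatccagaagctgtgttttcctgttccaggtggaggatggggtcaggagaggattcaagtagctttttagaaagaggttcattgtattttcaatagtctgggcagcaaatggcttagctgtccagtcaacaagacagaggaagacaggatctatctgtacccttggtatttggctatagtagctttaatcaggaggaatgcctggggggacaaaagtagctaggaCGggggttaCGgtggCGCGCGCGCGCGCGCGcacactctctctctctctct

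The Scn4b window held 26 CG pairs, more than 83.1% of 32817 mouse promoter windows of the same length, and that of Scn2b held 2, more than 14.1% of windows. Ano1 had 18 (more than 70.3% of windows) and Kcnk1 had 10 (more than 56.6%), part of them in a CG repeat next to the start. The median window held 7, and 94.6% held at least 1. CG reads the same on both strands, and its presence is a description of the letters only. Just 97 of the 132 members had a window, under 80%, so a comparison over the members would be void and was not made.

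Fewer members reached a level of 10 in the clones, while the members' summed level was larger there. The scaled counts of all members summed to 83005, 86696 and 84273 in the clones, against 39202, 38667 and 46551 in the controls, a ratio of means of 2.04. Members with a scaled count of at least 10 numbered 69, 68 and 68 in the clones and 100, 103 and 110 in the controls. Neither measure overlapped between the groups (exact two-sided permutation p = 0.1 for each, the smallest possible). Members with any read numbered 102, 102 and 106 in the clones and 131, 123 and 129 in the controls. Over all genes of the table, 16558 to 16721 had a read in a clone and 17539 to 17632 in a control. A total of 18 members had no read in any clone, and 0 members had no read in every control. For the level of 10 and for the absence of reads, the share over all genes was not counted. Whether these numbers are particular to the members was therefore not tested. The sum was uneven: Ano1 (14.9%), Trpm7 (13.8%), Ano6 (12.4%) and Piezo1 (9.19%) made up 50.3% of the clones' member sum, whereas in the controls Clic4 (16.0%), Clcn3 (11.6%), Trpm7 (11.6%), Piezo1 (7.29%) and Clic1 (5.18%) made up 51.6%.

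**Figure D1:**
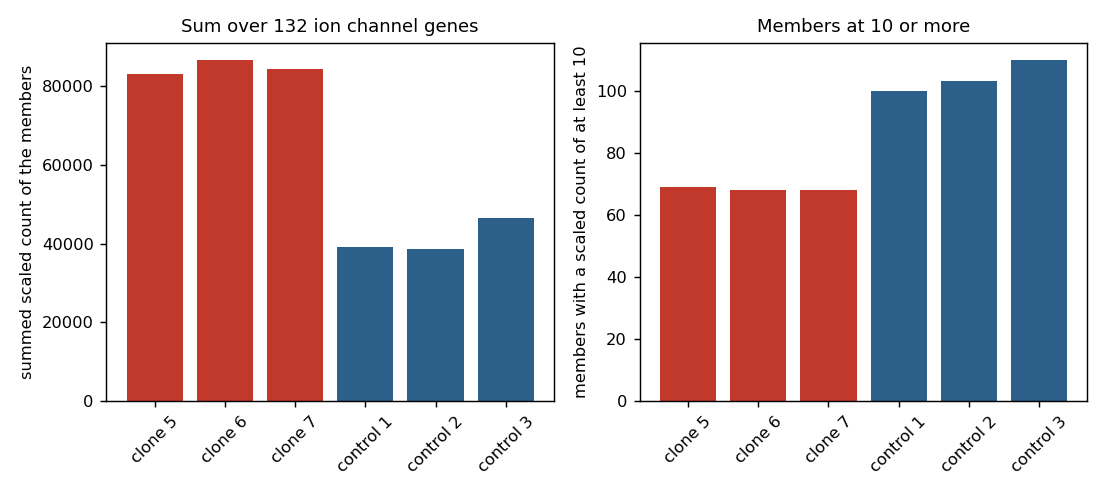
Summed scaled count of the 132 ion channel genes (left) and number of them with a scaled count of at least 10 (right) in each library, clones in red and controls in blue. The clones sum to between 83005 and 86696, above every control, while 68 or 69 members reach 10 in each clone against 100 to 110 in the controls. The share of all genes reaching 10 was not counted.

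Of the 132 members, 101 passed the filter on the mean and were tested. In the clones, 31 were higher and 54 were lower, and 16 did not pass the test, against 35.2% higher and 38.3% lower over all genes. The median log2 fold change was -1.64 for the tested members and -0.07 for all genes tested. At least 2-fold changes were called in 29 members higher and 53 lower (22.4% and 25.7% over all genes). The clones lay above all controls in 32 members and below all controls in 55 (36.7% and 40.6% over all genes). These counts, and the counts and medians by family below, are a description only. Of the tested members, 34 reached a mean of 10 only through the controls and 8 only through the clones, and such genes had to differ. Another 59 averaged at least 10 in both groups. With no filter, all 132 members could be fitted, and 40 were higher and 74 lower (31.9% and 38.2% over all genes), with a median of -1.82 against -0.14. With a mean of at least 50 required, 60 members were tested, and 26 were higher and 26 lower (38.4% and 36.0% over all genes), with a median of -0.29 against 0.02, so the larger number of lower calls came from members with a mean under 50.

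**Figure D2:**
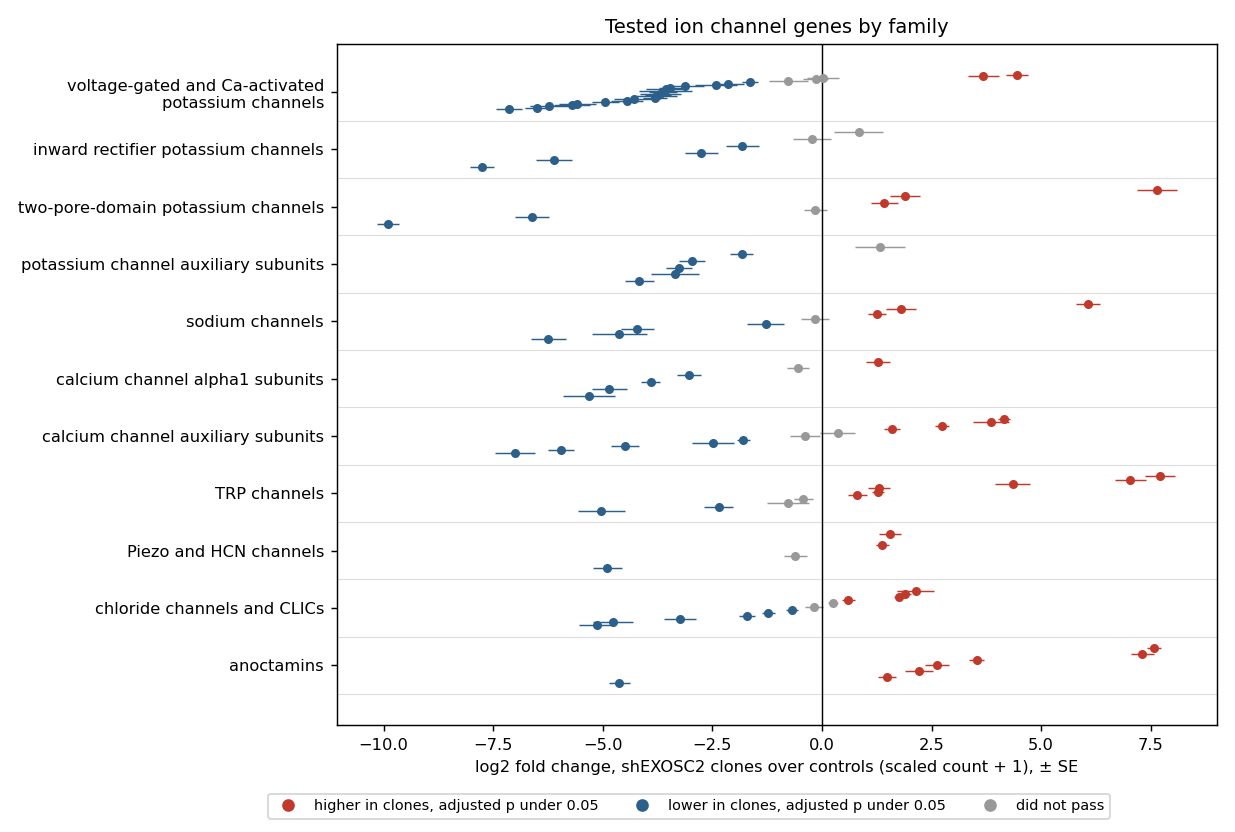
Log2 fold change of clones over controls with its standard error for the 101 tested ion channel genes, 1 point per gene, arranged by family. Red points were higher, blue points lower and grey points did not pass the test; potassium channel families lie mostly on the lower side and anoctamins mostly on the higher side.

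Potassium channels made up 61 members, of which 43 were tested, 5 were higher and 31 lower (35.2% and 38.3% over all genes). The voltage-gated and calcium-activated pores were the largest family: of 25 tested, 2 were higher, 20 lower and 3 did not pass, against the same shares over all genes, with a median of -3.63. The 2 that were higher were Kcnn4 and Kcnf1. Kcnn4, an intermediate-conductance calcium-activated channel known from red blood cells and lymphocytes, had 923, 1238 and 1130 in the clones and 33.1, 63.7 and 55.2 in the controls (4.45 ± 0.26, adjusted p = 8.6e-07). Kcnf1, an electrically silent subunit that modifies other pores, had 179, 223 and 228 in the clones and 27.5, 10.8 and 12.1 in the controls (3.68 ± 0.35).

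The small-conductance calcium-activated channels, which shape the pause after an action potential, went the other way from Kcnn4. Kcnn2 had no read in the clones and 170, 141 and 115 in the controls, which puts it at least 48.3-fold lower against a floor of 3 reads per library. Kcnn1 had 20.9, 30.8 and 23.1 in the clones and 218, 294 and 346 in the controls (-3.46 ± 0.26), and Kcnn3 averaged 2.92 ± 1.98 in the clones and 42.6 ± 15.4 in the controls (-3.55 ± 0.45). Of the 4 members of the Kcnn family, the clones thus lay above the controls for Kcnn4 and below them for the other 3.

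The Kcnq pores carry slow potassium currents that hold back repeated firing. Kcnq3 had 1 read over the clones and 24.6, 24.8 and 29.1 in the controls, a ratio of 85.2 (95% interval of the reads 15.3 to 3365). Kcnq5 averaged 23.2 ± 1.46 in the clones and 24.5 ± 9.96 in the controls (0.02 ± 0.36, adjusted p = 0.97). The groups of Kcnq3 therefore did not overlap, and those of Kcnq5 did.

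Kcnh genes encode the ether-à-go-go pores, of which Kcnh2 is known as a repolarizing channel of the heart. Kcnh2 had 13.9, 18.5 and 11.1 in the clones and 150, 258 and 213 in the controls (-3.74 ± 0.30, adjusted p = 5.3e-06). Kcnh1, Kcnh3, Kcnh4 and Kcnh6 were also lower, with log2 fold changes of -2.42, -3.78, -4.29 and -2.14. Control 3 held most of the Kcnh1 reads, with 142 against 51.1 and 36.7 in the other controls. Kcnc4, of a class that allows fast firing, had no read in the clones and 32.2, 47.5 and 87.4 in the controls, at least 18.9-fold lower. Kcnt2, a sodium-activated channel, had 2 reads over the clones and 91.9, 91.8 and 197 in the controls, a ratio of 188 (95% interval of the reads 52.1 to 1554).

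Of the other pores of this family, Kcnd1, of the transient A-type current, had 82.6, 86.3 and 92.3 in the clones and 253, 266 and 301 in the controls (-1.64 ± 0.18). The silent subunits Kcng1, Kcns1 and Kcns3 were lower, with log2 fold changes of -5.58, -3.68 and -3.13, opposite to Kcnf1. Kcna6 was lower (-3.57 ± 0.61), with control 3 at 50.2 and the other controls at 13.3 and 13. Its call was lost under quantile normalization (-1.47, adjusted p = 0.081). Kcna7 (-0.14 ± 0.29) and Kcng3 (-0.77 ± 0.45) did not pass. The 10 untested pores of this family had group means of 19.4 or less, and among them Kcna2, Kcnc1, Kcng4, Kcnh8 and Kcnma1 had no clone read. The cardiac Kcnq1, the sperm channel Kcnu1 and the sodium-activated Kcnt1 averaged 0.639, 1.89 and 0.342 in the clones and 9.47, 12.3 and 19.4 in the controls, while Kcnc2 had 13.9, 5.14 and 11.1 in the clones and 3.79, 4.32 and 2.01 in the controls, and the silent subunit Kcnv2 averaged 5.83 and 2.07.

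Among the tandem-pore-domain potassium channels, which carry background currents, 3 of 6 tested were higher and 2 lower, and the sizes were large in both directions. Kcnk1 (chr8:125995170-126030685) had no read in any clone and 1049, 1079 and 761 in the controls. It was at least 327-fold lower, and its log2 fold change of -9.90 ± 0.26 (adjusted p = 3.0e-08) depends on the pseudocount. Kcnk5, a channel sensitive to pH and cell volume, had 18.9, 27.7 and 8.30 in the clones and 1781, 2016 and 1372 in the controls (-6.61 ± 0.38). Kcnk13, known from microglia, had 331, 383 and 481 in the clones and 2.84, 0 and 1.0 in the controls (7.64 ± 0.47, adjusted p = 1.2e-06). Per kilobase of exon, Kcnk5 and Kcnk1 were the leading potassium channel genes of the controls (506 and 431), and Kcnn4 and Kcnk13 those of the clones (214 and 128).

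The stretch-sensitive Kcnk2 (41.6 ± 9.07 in the clones, 15.0 ± 3.72 in the controls) and Kcnk7 (23.2 ± 6.59 and 5.43 ± 1.44) were higher by 1.42 ± 0.31 and 1.90 ± 0.35. Kcnk6 had 213, 170 and 255 in the clones and 215, 178 and 326 in the controls and did not pass (-0.15 ± 0.26). Kcnk10 (17.8 ± 3.96 in the clones and 0.947 ± 1.64 in the controls) and Kcnk3 (0.332 ± 0.574 and 6.52 ± 4.62) were not tested.

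Of 6 inward rectifiers tested, which pass potassium more easily into the cell, 4 were lower and 0 higher, against 38.3% and 35.2% over all genes. Kcnj10, which takes up potassium in glia, had no read in the clones and 235, 220 and 193 in the controls, at least 73.4-fold lower. Kcnj3, a pore opened by G proteins, had 1 read over the clones and 111, 100 and 55.2 in the controls, a ratio of 289 (interval 51.8 to 11409). Exons of the lincRNA Gm26794 on the other strand cover 31.1% of its exon bases, and whether reads were counted by strand is not given. Kcnj12 (-2.75 ± 0.38) and Kcnj4 (-1.82 ± 0.38) were lower, Kcnj4 with its call lost under quantile normalization (-0.97, adjusted p = 0.061). Kcnj2, a main setter of the resting potential in muscle, had 38.8, 18.5 and 48.9 in the clones and 37.9, 24.8 and 60.3 in the controls and did not pass (-0.22 ± 0.44), as did Kcnj15 (0.84 ± 0.56). Kcnj5, Kcnj9, Kcnj11 and Kcnj14 were not tested, and of these the clones lay above the controls for Kcnj5 alone.

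Of the auxiliary subunits of potassium channels, 5 of 6 tested were lower and 0 higher (38.3% and 35.2% over all genes). Kcnip2, a calcium-binding partner of A-type pores, had 6.96, 5.14 and 12 in the clones and 172, 132 and 158 in the controls (-4.16 ± 0.32, adjusted p = 4.9e-06). Kcnip3 (-3.26 ± 0.31) and Kcnmb4 (-3.35 ± 0.55), a beta subunit of the large-conductance calcium-activated channel, were also lower. Of the cytoplasmic beta subunits, Kcnab2 averaged 13.3 ± 2.85 in the clones and 111 ± 25.5 in the controls, and Kcnab3 averaged 46.1 ± 12.1 and 164 ± 28.4. Kcnab1 averaged 24.8 ± 8.39 in the clones and 11.3 ± 9.06 in the controls (1.33 ± 0.57, adjusted p = 0.064), and passed without control 3 (1.90, adjusted p = 0.010), after chromosome centring (1.5, 0.034) and under quantile normalization (2.84, 0.0017). Kcne3 and Kcne4, with group means of 9.17 and 5.49 in the clones and 1.01 and 0.985 in the controls, were not tested.

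Of 8 sodium channel genes tested, 3 were higher and 4 lower, shares of 37.5% and 50% that are near the 35.2% and 38.3% over all genes. Scn4b, a beta subunit that supports resurgent sodium current, had 771, 881 and 839 in the clones and 16.1, 7.56 and 12.1 in the controls (6.06 ± 0.27, adjusted p = 2.3e-07). Scn2b, another beta subunit, had 0, 0 and 0.923 in the clones and 23.7, 21.6 and 21.1 in the controls, a ratio of 71.9 (interval 12.9 to 2842). Both genes lie 8.325 kb apart on the plus strand of chromosome 9 (chr9:45117782-45130070 and chr9:45138395-45154152), and their promoters, printed above, held 26 and 2 CG pairs. The beta subunit Scn3b had 3.98, 1.03 and 0 in the clones and 46.4, 31.3 and 97.4 in the controls (-4.62 ± 0.63). Scn3b was thus lower like Scn2b and unlike Scn4b. Both Scn2b and Scn3b passed the filter on the mean only through the controls, and such genes had to differ.

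Among the sodium pores, Scn8a, a main neuronal isoform, had 746, 800 and 526 in the clones and 264, 256 and 337 in the controls (1.26 ± 0.20, adjusted p = 3.9e-04). Scn3a, known from the embryonic brain, had 0.995, 0 and 0 in the clones and 136, 83.2 and 73.3 in the controls, a ratio of 294 (interval 52.8 to 11627). Scnn1a, the alpha subunit of the epithelial sodium channel, had 39.8, 36.0 and 77.5 in the clones and 87.1, 89.6 and 213 in the controls (-1.28 ± 0.42, adjusted p = 0.021). Its call was lost without clone 5 (adjusted p = 0.062), without clone 6 (0.069), without control 3 (0.066) and under quantile normalization (0.16). Scn1a and Scn9a, 39.24 kb apart on chromosome 2, were not tested and averaged 1.01 ± 0.995 and 0 in the clones and 9.54 ± 5.55 and 15.3 ± 10.6 in the controls.

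Of the voltage-gated calcium pores (alpha1 subunits), 6 were tested, 1 was higher and 4 were lower (35.2% and 38.3% over all genes). Cacna1a, the pore of P/Q-type channels at synapses, had 22.9, 30.8 and 36.9 in the clones and 442, 508 and 433 in the controls (-3.91 ± 0.23, adjusted p = 8.9e-07). Cacna1b, the N-type pore, averaged 2.56 ± 2.22 in the clones and 114 ± 15.8 in the controls (-5.32 ± 0.59). The T-type pore Cacna1h had 31.8, 24.7 and 36.0 in the clones and 195, 247 and 352 in the controls (-3.04 ± 0.27), while the T-type pore Cacna1g had 95.5, 79.1 and 106 in the clones and 111, 125 and 182 in the controls and did not pass (-0.55 ± 0.25, adjusted p = 0.072). Cacna1g also had no overlap between groups, so its failure to pass does not show equal levels, and it passed after chromosome centring (-0.72, adjusted p = 0.027).

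The L-type pores, which couple depolarization to contraction and transcription, were divided. Cacna1c had 114, 70.9 and 112 in the clones and 42.6, 33.5 and 42.2 in the controls (1.28 ± 0.27, adjusted p = 0.0021). Cacna1s, of skeletal muscle, had no clone read and 17, 29.2 and 43.2 in the controls, at least 10.1-fold lower, with 1309 of its exon bases under exons of Gm37759 on the other strand. Cacna1d, Cacna1f and Cacna1i were not tested, and their clone means of 1.6, 0 and 1.3 were below their control means of 4.73, 6.66 and 9.33.

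All 11 auxiliary subunits of calcium channels were tested, and 4 were higher, 5 lower and 2 did not pass, shares of 36.4% higher and 45.5% lower that are near the 35.2% and 38.3% over all genes. Subunits of the alpha2-delta class, which carry the pore to the surface, included Cacna2d2 with 3641, 4063 and 3827 in the clones and 184, 212 and 251 in the controls (4.16 ± 0.14, adjusted p = 7.2e-08). Cacna2d3 had 119, 138 and 89.5 in the clones and 3.79, 6.48 and 13.1 in the controls (3.85 ± 0.41), and Cacna2d1 averaged 143 ± 55.8 and 180 ± 46.1 and did not pass (-0.39 ± 0.34). Of the cytoplasmic beta subunits, Cacnb3 had 3837, 4655 and 4947 in the clones and 566, 801 and 652 in the controls (2.74 ± 0.16), and Cacnb1 averaged 585 ± 86.0 and 192 ± 30.0 (1.61 ± 0.18). Cacnb2 averaged 5.72 ± 4.75 in the clones and 31.0 ± 3.36 in the controls (-2.48 ± 0.49), a call lost under quantile normalization (-0.99, adjusted p = 0.052).

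The gamma subunits had no member higher in the clones. Cacng6 had 0, 2.05 and 0 in the clones and 163, 185 and 210 in the controls, a ratio of 271 (interval 75.1 to 2240). Cacng4 and Cacng5, neighbours on chromosome 11 that serve glutamate receptor trafficking, had no clone read and averaged 61.4 ± 10.3 and 21.8 ± 3.36 in the controls, at least 20.9-fold and 7.4-fold lower. Cacng7 had 196, 175 and 221 in the clones and 612, 711 and 728 in the controls (-1.79 ± 0.16). Cacng8 lies between Cacng7 and Cacng6 on chromosome 7, 22.462 and 8.547 kb from them, and averaged 26.7 ± 10.7 in the clones and 20.9 ± 9.35 in the controls without passing the test (0.36 ± 0.40).

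**Figure D3:**
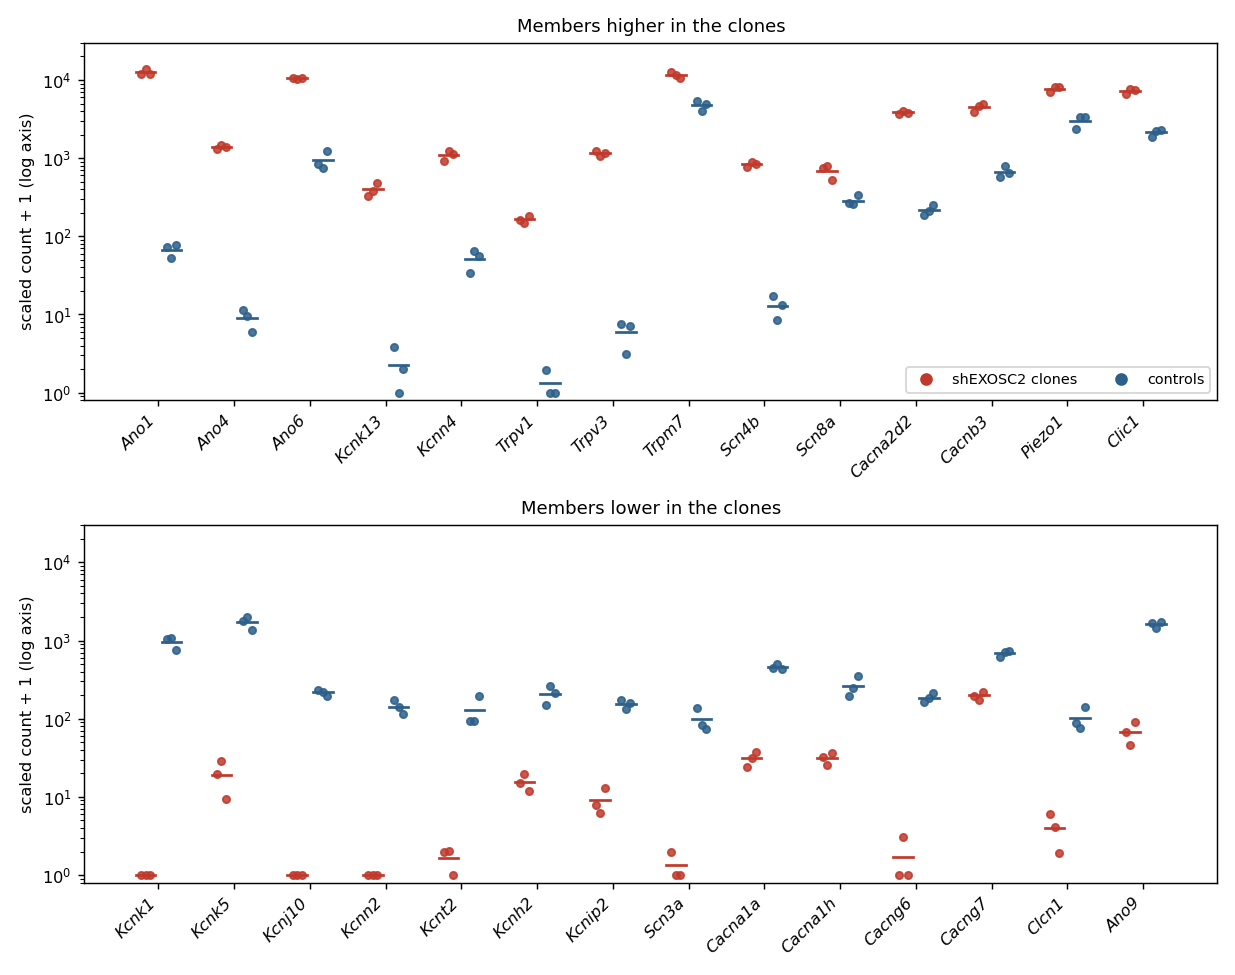
Scaled count plus 1 (log axis) of 28 selected ion channel genes in each library, clones in red left of controls in blue, with a bar at each mean; upper panel members higher in the clones, lower panel members lower. The libraries of the 2 groups do not overlap for any gene shown, from Ano1 at 11989 to 13782 against 51.8 to 75.3 to Kcnk1 at 0 against 761 to 1079. The genes were picked among called members, so the lack of overlap is no separate result. Over all genes tested, the clones lay above all controls in 36.7% and below all controls in 40.6%.

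Transient receptor potential (TRP) channels are cation channels opened by temperature, chemicals or lipids, and 6 of 10 tested were higher and 2 lower (35.2% and 38.3% over all genes). Trpv1, the receptor for heat and capsaicin, had 159, 147 and 184 in the clones and 0.947, 0 and 0 in the controls, a ratio of 517 with an interval of 92.8 to 20423 that rests on 1 control read. Trpv3, a warmth-sensitive channel known from keratinocytes, had 1249, 1066 and 1164 in the clones and 6.63, 2.16 and 6.03 in the controls (7.71 ± 0.34, adjusted p = 2.1e-07). The pair lies 6.146 kb apart on chromosome 11 (chr11:73234292-73261242 and chr11:73267388-73300363), and both were higher in every clone than in every control.

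Trpm7, a channel joined to a kinase and known for magnesium uptake, was abundant in both groups, with 12649, 11628 and 10666 in the clones and 5436, 4029 and 4953 in the controls (1.28 ± 0.13). Trpm8, the receptor for cold and menthol, averaged 25.2 ± 5.47 in the clones and had 1 read over the controls, a ratio of 75.3 (interval 13.5 to 2974). Trpc1 averaged 444 ± 23.1 in the clones and 187 ± 72.5 in the controls (1.31 ± 0.25), and Trpv4, opened by cell swelling, averaged 174 ± 22.6 and 99.4 ± 15.6 (0.81 ± 0.21, adjusted p = 0.0068). The call for Trpv4 was lost when each gene was centred on its chromosome's median (0.51, adjusted p = 0.052).

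Trpv2 had 16.9, 17.5 and 24.9 in the clones and 72.9, 94.0 and 164 in the controls (-2.36 ± 0.34), and Trpm1, the channel of retinal bipolar cells, had 3 reads over the clones and averaged 63.7 ± 29.3 in the controls, a ratio of 64.2 (interval 22.0 to 311). Trpm4 had 236, 273 and 236 in the clones and 237, 399 and 390 in the controls (-0.42 ± 0.22), and Trpm6 averaged 12.9 ± 3.23 and 26.1 ± 19.2 (-0.78 ± 0.47). Neither passed, except that Trpm4 did without control 1 (-0.67, adjusted p = 0.0093). Trpm2 had no clone read and a control mean of 13.5, and Trpc6 and Trpm3 averaged 4.27 and 8.42 in the clones and 0.650 and 0.985 in the controls. They were not tested.

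Piezo1 and Piezo2 encode channels opened by membrane stretch, and both were higher. Piezo1 had 6978, 8137 and 8222 in the clones and 2342, 3386 and 3342 in the controls (1.38 ± 0.16, adjusted p = 4.9e-05). Exons of Ctu2 on the other strand cover 24.6% of its exon bases. Piezo2, the touch receptor of sensory neurons, had 298, 184 and 320 in the clones and 90.9, 77.8 and 97.4 in the controls (1.55 ± 0.25). Of the hyperpolarization-activated channels, known as pacemakers, Hcn3 had 0.995, 2.05 and 1.85 in the clones and 71.0, 103 and 60.3 in the controls (-4.90 ± 0.33), with 17.1% of its exon bases shared with Pklr on the other strand. Hcn2 had 142, 200 and 160 in the clones and 176, 283 and 325 in the controls (-0.61 ± 0.26, adjusted p = 0.059). It passed with edgeR (adjusted p = 0.037), with DESeq2 (0.024) and after chromosome centring (0.020), and also without clone 6 (0.050, just under the threshold) or without control 1 (0.011). Hcn4 was not tested, with a mean of 6.53 in the clones and 1.32 in the controls.

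Anoctamins include calcium-activated chloride channels and lipid scramblases. Of 7 tested, 6 were higher and 1 lower (35.2% and 38.3% over all genes). With no filter, 6 of 9 were higher and 3 lower (31.9% and 38.2% over all genes). Ano1 (chr7:144588549-144751974), the calcium-activated chloride channel of epithelia and smooth muscle, had 12081, 13782 and 11989 in the clones and 71.0, 51.8 and 75.3 in the controls (7.57 ± 0.16, adjusted p = 1.4e-08). Ano6, a calcium-activated lipid scramblase, had 10711, 10233 and 10609 in the clones and 829, 747 and 1224 in the controls (3.53 ± 0.17). Ano4 had 1319, 1456 and 1374 in the clones and 10.4, 8.64 and 5.02 in the controls (7.31 ± 0.26). These 3 genes had the largest rises of the family, and in each the lowest clone was above the highest control.

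Ano10 had 1312, 1320 and 1333 in the clones and 170, 163 and 355 in the controls (2.62 ± 0.27). Ano3 and Ano8 were higher by 2.22 ± 0.31 and 1.48 ± 0.20. Ano9 had 66.7, 45.2 and 89.5 in the clones and 1699, 1433 and 1732 in the controls (-4.62 ± 0.24, adjusted p = 5.0e-07), and was the one tested anoctamin that was lower. Ano5 and Ano7 were not tested, with 1 and 5 reads over the clones and control means of 13.2 and 17.6.

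Of the 12 members of the chloride channel and CLIC families, all tested, 4 were higher and 6 lower, shares of 33.3% and 50% that are near the 35.2% and 38.3% over all genes. Clcn genes encode chloride channels of the surface and chloride-proton exchangers of endosomes and lysosomes. Clcn4, an endosomal exchanger, had 1279, 1037 and 1356 in the clones and 329, 319 and 329 in the controls (1.90 ± 0.14), and Clcn7, the lysosomal exchanger of bone-resorbing cells, averaged 1397 ± 108 and 930 ± 180 (0.60 ± 0.15, adjusted p = 0.0067). The call for Clcn7 was lost under quantile normalization (0.38, adjusted p = 0.052). Clcn6, of late endosomes, had 488, 428 and 433 in the clones and 1256, 1320 and 1929 in the controls (-1.71 ± 0.18), and the surface channel Clcn2 averaged 341 ± 35.4 and 799 ± 111 (-1.22 ± 0.16). The muscle channel Clcn1 had 4.97, 3.08 and 0.923 in the clones and 87.1, 74.5 and 141 in the controls (-4.77 ± 0.46).

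Clcn3 and Clcn5, both endosomal, did not pass. Clcn3 had 5745, 5858 and 5477 in the clones and 5059, 4020 and 5360 in the controls (0.25 ± 0.12, adjusted p = 0.093), and Clcn5 averaged 1149 ± 62.5 and 1347 ± 432 (-0.18 ± 0.20). Clcn3 passed without control 3 (0.34, adjusted p = 0.033) and after chromosome centring (0.73, adjusted p = 8.1e-04). Among the chloride intracellular channel proteins, which exist in soluble and membrane forms, Clic1 had 6705, 7616 and 7488 in the clones and 1887, 2239 and 2315 in the controls (1.76 ± 0.11), and Clic3 was higher by 2.14 ± 0.42. Clic4 had 4248, 4056 and 3934 in the clones and 6312, 5473 and 8090 in the controls (-0.68 ± 0.14, adjusted p = 0.0023). Clic5 and Clic6 were lower, with clone means of 1.94 and 0.639 and control means of 26.5 and 55.9.

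Compared per kilobase of annotated exon, the order of levels also differed between the groups. In the clones the highest mean scaled count per kb was that of Clic1 (4041 ± 274), followed by Ano1 (2021 ± 162), Cacnb3 (1117 ± 143), Trpm7 (1029 ± 87.6) and Ano6 (857 ± 20.5). The ranges of mean ± SD of Cacnb3 and Trpm7 overlapped. In the controls the order was Clic1 (1194 ± 127), Clic4 (1008 ± 203), Kcnk5 (506 ± 95.8), Kcnk1 (431 ± 78.5) and Trpm7 (425 ± 63.2). There the ranges of mean ± SD of Clic1 and Clic4 overlapped, as did those of Kcnk5, Kcnk1 and Trpm7. Ano1 stood at 10.6 per kb in the controls, and Kcnk5 at 5.38 per kb in the clones.

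**Figure D4:**
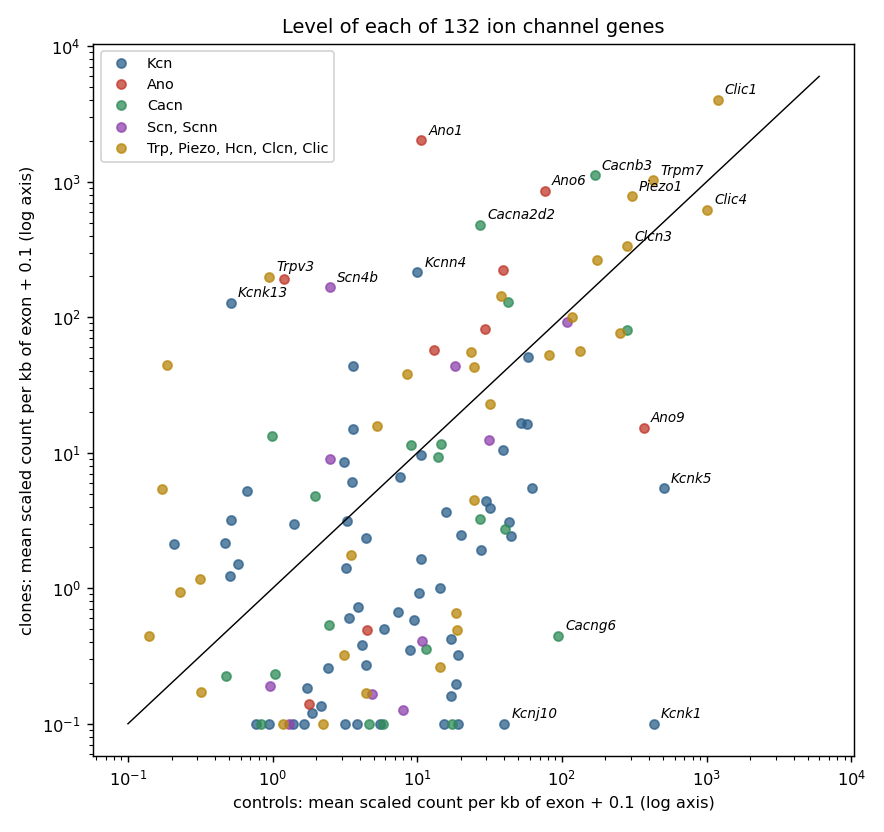
Mean scaled count per kb of exon, plus 0.1, of each of the 132 ion channel genes in the clones (vertical, log axis) against the controls (horizontal, log axis), coloured by symbol prefix, with a line at equal levels. Clic1 is highest in both groups, Ano1 stands at 2021 per kb in the clones against 10.6 in the controls, and points along the bottom edge are genes with no clone read.

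Members that were higher and members that were lower had similar control levels, with medians of 88.7 and 88.9 scaled counts, and clone medians of 585 and 2.92. All genes called higher and lower had control medians of 398 and 537, and clone medians of 1131 and 133. The median gene span was 69.6 kb for members that were higher and 38.0 kb for those that were lower, against 24.7 kb and 22.3 kb for all genes called in the same direction. These medians were not tested. Exons of genes on the other strand also cover 39.6% of the exon bases of Kcna6, 12.2% of those of Kcnk2 and 11.5% of those of Clcn4, and Kcnmb4 shares 20.8% with 1 such gene and 10.7% with another, so that their values carry the same uncertainty of strand. Among tested members, 34.7% had a fold change of at least 16, against 11.3% of all genes tested, and 82.2% and 48.4% had one of at least 2. The members and all genes were not matched for level in these shares.

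Related genes outside the naming pattern were counted in 5 lists, to be read against 35.2% higher and 38.3% lower over all genes. Of 64 ligand-gated channel genes, opened by transmitters, 39 were in the table and 27 were tested, of which 5 were higher (18.5%) and 20 lower (74.1%, median -3.87). Grik3, a kainate-type glutamate receptor subunit, averaged 0.342 ± 0.593 in the clones and 593 ± 117 in the controls, and P2rx7, a channel opened by ATP, averaged 1328 ± 116 and 106 ± 12.1. Intracellular and store-operated calcium channels gave 15 higher (62.5%) and 4 lower (16.7%) of 24 tested (median 0.68), with Orai2, a store-operated pore, at 570 ± 8.89 in the clones and 76.6 ± 6.78 in the controls. Mcoln3 had no read in the clones and averaged 98.6 ± 13 in the controls.

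Other anion channels gave 7 higher (46.7%) and 5 lower (33.3%) of 15 tested (median 0.18). Lrrc8b and Lrrc8c, subunits of the volume-regulated anion channel, averaged 3322 ± 231 and 1793 ± 121 in the clones and 556 ± 103 and 427 ± 65.4 in the controls. Pumps, exchangers and cotransporters gave 10 higher (35.7%) and 11 lower (39.3%) of 28 (median -0.19), close to the shares over all genes, among them the sodium pump regulators Fxyd5 (2611 ± 72.6 in the clones, 85.1 ± 13.9 in the controls) and Fxyd6 (4.62 ± 2.25 and 1896 ± 161), and the proton-potassium pump Atp12a (662 ± 62.7 and 30.1 ± 4.76). Channel partners gave 13 higher (44.8%) and 8 lower (27.6%) of 29 (median 0.19). Lrrc26, an auxiliary subunit of the large-conductance calcium-activated potassium channel, averaged 136 ± 29.2 in the clones and 0.335 ± 0.580 in the controls, whereas the pore of that channel, Kcnma1, had no clone read and 15.2, 7.56 and 11.0 in the controls. Gem, a small GTPase that binds calcium channel beta subunits, averaged 1556 ± 86.1 in the clones and 41.1 ± 2.79 in the controls, and Mdfic, reported as a Piezo subunit, averaged 2087 ± 63.5 and 114 ± 15.4.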

How the data were processed

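Poly(A)-selected RNA of 6 libraries was sequenced. Per the labels' protocols, libraries came from a stranded mRNA kit with 500 ng of total RNA and 8 PCR cycles. The submitters' processing notes name mm10 and, with no settings, DESeq 1.22.1, STAR 2.5.0a, cutadapt 1.6 and HTSeq 0.5.3. The values the authors deposited are a signal: counts per gene divided by DESeq size factors. Within 0.001 read, 100.0% of values were whole multiples of a step per library, so whole reads were recovered. No gene had fewer than 15 reads in all. Of the genes, 99.7% matched GENCODE M21 (GRCm38, the assembly of mm10), which gave positions and exon lengths.

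limma 3.58.1 (lmFit, eBayes with trend) was fitted on log2(signal + 1) over all genes with a mean of at least 10. Adjustment was by Benjamini-Hochberg at 0.05, and the fit was first tested on simulated data. On this scale low genes show smaller fold changes than their values have. A group with no read was set at a floor of 3 reads per library, and ratios on 1 to 3 reads carry exact 95% Poisson intervals, both for counting error only. Groups came from the titles. Any member could be named. Values per library were given for up to 4 higher and 4 lower members of each family with a mean of at least 50, the top 5 per kb and members without reads in a group, and for some others, and up to 3 genes of the smallest p were named per related list. Some genes that these rules take are not reported here. The members and lists were chosen with earlier results of these data known. Alternatives were a pseudocount of 0.5 or 5, a minimum mean of 50 or none, TMM scaling, quantile normalization, eBayes without trend or robust, edgeR 4.0.16 and DESeq2 1.42.0 on the recovered reads, centring on chromosome medians, and leaving out each library.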

Additional observations from a re-analysis of the deposited data

How the results depend on the processing

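Of the 85 members called, 79 kept their call and direction in every alternative that tested them. The call was lost for Scnn1a, Clcn7, Kcna6, Kcnj4 and Cacnb2 under quantile normalization, for Scnn1a also without clone 5, clone 6 or control 3, and for Trpv4 under chromosome centring. Kcna7 (-0.14, not passed) turned to 1.13 under quantile normalization (adjusted p = 0.015). The cause was not tested. Requiring a mean of at least 50 left 60 members, of which 26 were higher and 26 lower. Without 1 library, 31 to 33 members were higher and 53 to 56 lower. edgeR and DESeq2 each gave 31 higher and 55 lower. Of 16 members that did not pass, 7 passed in no alternative. Kcnq5, Cacng8 and Kcnj15 passed, higher in the clones, under quantile normalization alone (1.31, 1.71 and 2.29). No paired analysis was possible because the clones and controls share no replicate numbers. The 31 untested members had group means at or under 19.4, where counts are few and differences are less precise.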
